A study of Zea mays with 4 samples.

Results

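The 3 genes described here encode defence proteins of the maize kernel or the precursor of one. They are the genes of the antimicrobial peptide precursor MBP-1 (GRMZM2G325118), the subtilisin-chymotrypsin inhibitor CI-1B (GRMZM2G012806) and a trypsin/factor XIIA inhibitor (GRMZM2G304548). They were taken by gene identifier, 3 of the 34567 genes with a value in any library, and they had been picked because they were lower in mutant than in wild-type endosperm. Their difference between genotypes is therefore a description, and no test of it is given. RNA came from endosperm, which stores the seed's reserves, collected 10 days after pollination. There were 2 libraries of a mutant labelled dek and 2 of wild type (WT), called A and B in each genotype. Every library was a pool of 8 to 10 individuals, and the pools of each genotype came from 2 segregating ears. The labels give neither the mutated gene nor the line, so no transcript checks the genotype. Estimated counts summed to between 13119658 and 14776699 per library, and p-values refer to the spread between pools, not between kernels.

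Plant seeds carry proteins that block digestive enzymes or damage microbes, and many of them accumulate alongside the storage proteins. Inhibitors of the potato inhibitor I family, to which CI-1B belongs, are tight-binding inhibitors of subtilisin-like and chymotrypsin-like serine proteases. The trypsin/factor XIIA inhibitor, listed in RefSeq with the synonym hag, belongs to the disulfide-rich trypsin and alpha-amylase inhibitors of cereals and is known for blocking trypsin and the clotting protease factor XIIa. MBP-1 is a small disulfide-bonded peptide, isolated from maize kernels, that inhibits the growth of bacteria and fungi.

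MBP-1 transcripts were close to absent in the mutant. The gene had 0.04 FPKM in dek A and no listed value in dek B, against 60.2 FPKM in WT A and 94.2 FPKM in WT B (fragments per kilobase of gene, scaled to the fragments counted in the library). These values rest on 1 and 0 estimated counts in dek A and B, against 1660 and 2342 in WT A and B. Both mutant pools lay far below both wild-type pools, and the groups did not overlap. With the missing value taken as 0, the means were 0.02 ± 0.0283 FPKM in dek and 77.2 ± 24.0 FPKM in WT (SD, n = 2 each). Between the summed counts the ratio of WT over dek was 5271.7, with an exact 95% Clopper-Pearson interval of 946 to 208271 after scaling for library size. Such intervals and the limits below cover counting error only. A count of 0 in dek B allows up to 3 counts, or 0.204 CPM.

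CI-1B showed the same contrast from a higher level. It had 0.2 FPKM in dek A and 0.1 FPKM in dek B, against 271 FPKM in WT A and 689 FPKM in WT B. The estimated counts were 2 and 1 in dek A and B and 2717 and 6231 in WT A and B. The groups did not overlap, and the wild-type pools differed from each other by more than those of the other 2 genes. The means were 0.15 ± 0.0707 FPKM in dek and 480 ± 296 FPKM in WT (SD, n = 2 each), and the ratio of summed counts, WT over dek, was 3928.9 with an exact 95% Clopper-Pearson interval of 1344 to 19055.4. In WT B it was the 102nd most abundant gene by FPKM of 29569 listed, and in WT A the 391st of 30452. In dek A it stood at place 27607 of 31509.

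The trypsin/factor XIIA inhibitor gene remained among the most abundant transcripts of the mutant at a reduced level. It had 719 FPKM in dek A and 1254.7 FPKM in dek B, against 2758.8 FPKM in WT A and 3104.2 FPKM in WT B. Here the mutant pools were the more variable ones, with dek B at 1.74 times dek A, and the lowest wild-type pool was 2.2 times the highest mutant pool. By place, the gene was 70th and 28th in dek A and B and 19th and 17th in WT A and B. It took 0.105% and 0.183% of all estimated counts in dek A and B, against 0.401% and 0.451% in WT A and B. The means were 987 ± 379 FPKM in dek and 2931.5 ± 244 FPKM in WT (SD, n = 2 each). The fitted log2 fold change was -1.87, and it ranged from -1.52 without dek A to -2.37 without dek B.

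**Figure D1:**
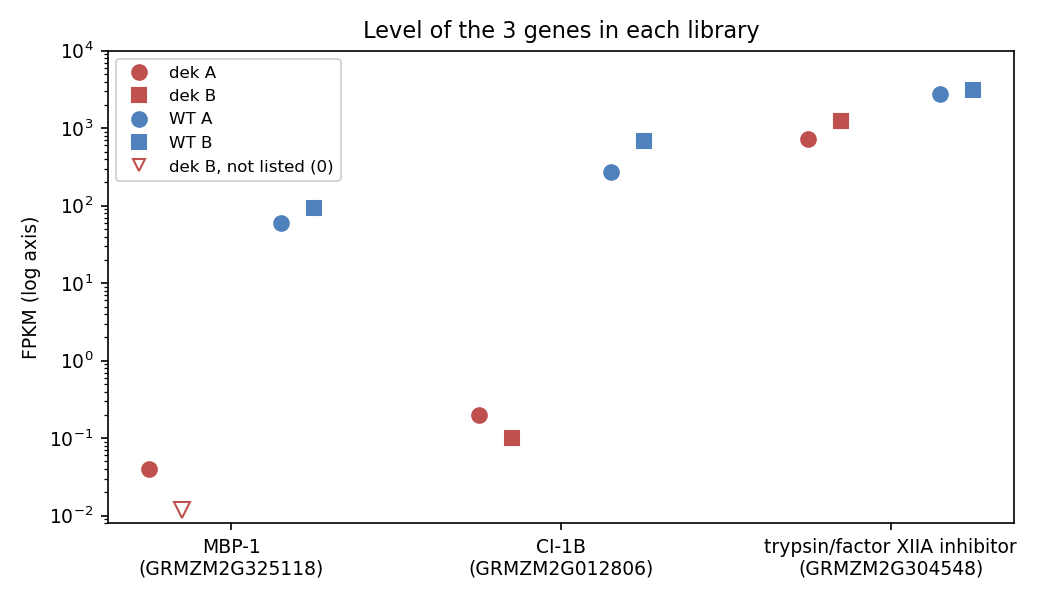
FPKM of the 3 genes on a log axis, with 1 point per library (circles, pool A; squares, pool B; red, dek; blue, WT). An open triangle marks dek B for MBP-1, which had no listed value. MBP-1 and CI-1B lie at or under 0.2 FPKM in dek, while the trypsin/factor XIIA inhibitor lies at 719 and 1254.7 FPKM there.

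The order of levels per length was the same in both genotypes, with the trypsin/factor XIIA inhibitor highest, CI-1B next and MBP-1 lowest. In wild type the order held in each pool without overlap. In dek the last 2 places rest on 3 and 1 counts over the group and cannot be told apart. The length used sets these levels: the deposited gene lengths are 1931 bases for MBP-1, 731 for CI-1B and 1492 for the trypsin/factor XIIA inhibitor, against gene spans of 1636, 651 and 784 bases in RefSeq (assembly Zm-B73-REFERENCE-NAM-5.0). The estimated counts of the 3 genes were whole numbers wherever listed, whereas between 22.14% and 24.03% of the listed values in a library were not whole. In pooled tissue, fewer cells of a type and less RNA per cell cannot be told apart.

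The limits of the next count were chosen after the values were seen, with 3 being the dek count of CI-1B itself, so it describes MBP-1 and CI-1B and supports nothing about them. Of 5026 genes with at least 1000 estimated counts over the wild-type group, 4 had 3 counts or fewer over the mutant group, among them MBP-1 and CI-1B. The others were a 22-kDa zein gene (GRMZM2G045387), a storage protein gene, with 1 count in dek and 2371.36 in WT, and GRMZM2G179063, of which the files name no protein, with 2 counts in dek and 1745 in WT. Alpha-zein genes lay just outside the limit, such as GRMZM2G404459 with 5 counts in dek and 3376.84 in WT and AF546187.1_FG001 with 6 counts in dek and 3993 in WT.

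Pools of one genotype were not equally close for the 3 genes. Among the 8836 tested genes whose wild-type mean reached 10 FPKM, the higher wild-type pool exceeded the lower by a median of 1.12 times. CI-1B differed by 2.54 times, a gap that 1.95% of those genes reached. MBP-1 differed by 1.56 times, reached by 6.97%, and the trypsin/factor XIIA inhibitor by 1.13 times, reached by 47.8%. Among 9995 such genes in dek, 2.37% reached the 1.74-fold gap of the trypsin/factor XIIA inhibitor. The bZIP activator of storage genes opaque2 (o2, GRMZM2G015534) had 60.1 and 34.7 FPKM in dek A and B and 87.4 and 203 FPKM in WT A and B. WT B was the higher wild-type pool for o2, as it was for each of the 3 genes. In dek, o2 was higher in pool A and the trypsin/factor XIIA inhibitor in pool B. The Dof-type activator PBF (pbf1, GRMZM2G146283), which binds the prolamin box of zein promoters, had 18.8 and 19.5 FPKM in dek A and B and 72.8 and 77.7 FPKM in WT A and B. The part of either factor in the levels of the 3 genes was not tested.

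Alpha-zein genes had the profiles most like MBP-1 and CI-1B. Likeness was the Euclidean distance of log2(FPKM + 1) over the 4 libraries, among genes with an informative description, so it reflects level as well as contrast. For MBP-1 the 5 nearest genes were all alpha-zeins, at distances of 0.27 for the 22-kDa zein GRMZM2G045387, 0.45 for GRMZM2G026939, 0.9 for GRMZM2G404459, 0.94 for GRMZM2G044152 and 1.29 for GRMZM2G346897. The nearest of them had 0 and 0.07 FPKM in dek A and B and 66.5 and 109 FPKM in WT A and B. For CI-1B the 5 nearest were again alpha-zeins but lay farther away, from 1.45 for GRMZM2G008913 through GRMZM2G044625, AF546187.1_FG001 and GRMZM2G353268 to 1.73 for GRMZM2G008341. Near-identical zein copies can share reads, so single copies are uncertain.

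The gene most like the trypsin/factor XIIA inhibitor was legumin 1 (GRMZM2G174883), an 11S-type seed globulin, at a distance of 0.42. It had 703 and 1000 FPKM in dek A and B and 2695.4 and 2588.1 FPKM in WT A and B. The next 4 were farther, between 1.63 and 1.83, namely alcohol dehydrogenase1 (GRMZM2G442658), a protein disulfide isomerase (GRMZM2G091481), shrunken2 (GRMZM2G429899), the large subunit of ADP-glucose pyrophosphorylase, and a tubulin alpha-1 chain (GRMZM2G153292). Shrunken2 had 470.0 and 507 FPKM in dek and 1811.4 and 1685.7 FPKM in WT. By FPKM, alcohol dehydrogenase1 had overlapping groups, with 1558.3 and 1346.7 in dek and 2106.9 and 1428.3 in WT. Tubulin had 1727.1 and 1848.2 FPKM in dek and 1714.6 and 1563 FPKM in WT. In the edgeR fit, alcohol dehydrogenase1 had a log2 fold change of -0.59 (edgeR adjusted p = 0.109) and tubulin of -0.18 (edgeR adjusted p = 0.359). Neither passed the threshold. Both thus share the level of the trypsin/factor XIIA inhibitor with a smaller contrast than its log2 fold change of -1.87.

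A neighbour of CI-1B also carried an inhibitor annotation. In the RefSeq gene order the gene next to CI-1B is GRMZM2G012928, of unnamed product but given a peptidase inhibitor term in the deposited tables. It had no counts in either dek library, and 1.44 and 22.9 FPKM in WT A and B. Against a floor of 3 counts over the dek group it was at least 74.2-fold lower in dek, and it did not pass the threshold (edgeR's quasi-likelihood test, adjusted p = 0.058). It did pass with DESeq2's Wald test (adjusted p = 0.0259), limma on log2(FPKM + 0.1) (0.0285), no low-count filter (0.046), a replicate block (0.0296) or WT A left out (0.00106). It did not pass in the other alternatives that gave a value, where the adjusted p ran from 0.052 to 0.169. Its wild-type level rests largely on WT B, the pool in which CI-1B was also higher. On the far side of it, GRMZM2G012964 had 9.6 and 8.14 FPKM in dek and 10.4 and 9.93 FPKM in WT (edgeR adjusted p = 0.0585). No matched neighbour of the other 2 genes passed the threshold. Around MBP-1, GRMZM2G000608 had 11.3 and 9.17 FPKM in dek and 5.26 and 6.78 FPKM in WT (edgeR adjusted p = 0.126), and GRMZM2G418160 had 2.5 and 1.12 FPKM in dek and 2.65 and 4.82 FPKM in WT (edgeR adjusted p = 0.103). Beside the trypsin/factor XIIA inhibitor, GRMZM2G127683 had 8.37 and 6.72 FPKM in dek and 5.61 and 4.2 FPKM in WT (edgeR adjusted p = 0.357).

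The other protease inhibitor genes were read for whether they moved along. Of 25 other genes described as protease inhibitors, 17 passed the filter on low counts. In dek 5 were lower and 2 higher at a Benjamini-Hochberg adjusted p under 0.05 in edgeR's quasi-likelihood test, which is 29.4% and 11.8% of the 17. Over all 24624 genes tested, 8.85% were lower and 7.98% higher (2178 and 1965 genes, or 1279 and 4502 with scaling to total counts). The median log2 fold change was -0.12, beside 0.01 over all genes, and it was 0.19 with scaling to total counts, which moved log2 fold changes up by a median of 0.307. Without dek A the test called 2 lower and 0 higher, and without dek B 3 lower and 0 higher. Without WT B it called 5 lower and 1 higher, and without WT A 5 lower and 3 higher.

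Of the 3 tested relatives of CI-1B, 2 were lower as well. The maize proteinase inhibitor gene MPI (GRMZM2G028393), a potato inhibitor I member, fell to 89.6 FPKM in dek (73.5 and 106 in A and B), against 346 FPKM in WT (247 and 445). Its log2 fold change was -2.23 (edgeR adjusted p = 0.0143), a call that did not hold without dek A (adjusted p = 0.0823) or without dek B (adjusted p = 0.057). The subtilisin-chymotrypsin inhibitor CI-1C (GRMZM2G058358), named after its values were seen, had 1.74 and 2.79 FPKM in dek and 52.5 and 45.4 FPKM in WT. It fell by 4.72 on the log2 scale (edgeR adjusted p = 0.00202) and kept its call with each library left out in turn. The third tested member of that family, GRMZM2G024827, stood near 1 to 2 FPKM, with 1.61 and 2.01 FPKM in dek and 2.09 and 0.68 FPKM in WT (edgeR adjusted p = 0.654).

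The other gene described as a trypsin/factor XIIA inhibitor, GRMZM2G404688, was far less abundant than GRMZM2G304548. It had 28.0 and 23.3 FPKM in dek A and B and 41.8 and 43.3 FPKM in WT A and B. It fell by 1.03 on the log2 scale (edgeR adjusted p = 0.0141), which missed the threshold without dek A (adjusted p = 0.0612) and without dek B (adjusted p = 0.0781). Fragments shared between the pair could be split by the authors' counting. The estimated counts of GRMZM2G304548 were whole numbers in each library, and those of GRMZM2G404688 summed to 477 in dek and 739 in WT. Sharing between the pair was not tested.

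Cystatins, which inhibit papain-type cysteine proteases, changed in part. Of 9 tested, 2 were lower. A putative cystatin (GRMZM2G030717) had 30.0 and 39.3 FPKM in dek and 156 and 131 FPKM in WT, and fell by 2.35 on the log2 scale (edgeR adjusted p = 0.00331). Cysteine proteinase inhibitor 2 (GRMZM2G440968), named after its values were seen, had 3.79 and 4.08 FPKM in dek and 9.47 and 10.1 FPKM in WT (edgeR adjusted p = 0.00733, and 0.0572 without dek A). The most abundant cystatin over the 4 libraries, cystatin1 (GRMZM2G438551), had 101 and 120 FPKM in dek and 105 and 101 FPKM in WT (edgeR adjusted p = 0.361). Cystatin 8 (GRMZM2G401374), named after its values were seen, had 185 and 67.5 FPKM in dek and 39.7 and 19.3 FPKM in WT without passing the threshold (edgeR adjusted p = 0.0743).

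Inhibitors of the list that were called higher in dek were low in level. A Bowman-Birk type trypsin inhibitor gene (GRMZM2G116520), of a family of small disulfide-rich serine protease inhibitors, had 3.37 and 1.28 FPKM in dek and 0.09 and 0 FPKM in WT. Its counts were 51 over the dek group and 1 over the WT group, a 38.7-fold ratio with an exact 95% Clopper-Pearson interval of 6.64 to 1558.8 (edgeR adjusted p = 0.0335). The adjusted p was 0.2 without dek A, 0.088 without dek B and 0.0916 without WT B. A serine-type endopeptidase inhibitor gene (GRMZM2G144936) had 8.89 and 11.2 FPKM in dek and 2.99 and 2.9 FPKM in WT (edgeR adjusted p = 0.0217), which became 0.0811 without dek A and 0.132 without dek B. The most abundant Bowman-Birk gene, GRMZM2G011523, described as the wound-induced inhibitor WIP1, had 56.0 and 43.7 FPKM in dek and 22.9 and 44.7 FPKM in WT (edgeR adjusted p = 0.598). Of the Kunitz type, GRMZM2G474575 had 9.22 and 3.72 FPKM in dek and 5.78 and 1.43 FPKM in WT (edgeR adjusted p = 0.648). The only gene of the list described as a serpin, GRMZM2G440605, was under the filter, at 0.46 and 1.85 FPKM in dek and 0.19 and 0.31 FPKM in WT. Serpins described under another name are not in the list, so this does not cover the family. Outside the list, genes described as protein Z carried the deposited peptidase inhibitor term, and they are named after their values were seen. GRMZM5G865319 was higher in dek (log2 fold change 1.48, edgeR adjusted p = 0.00679). GRMZM2G066996 was lower (log2 fold change -0.49, edgeR adjusted p = 0.0449, and 0.059 with upper-quartile factors).

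**Figure D2:**
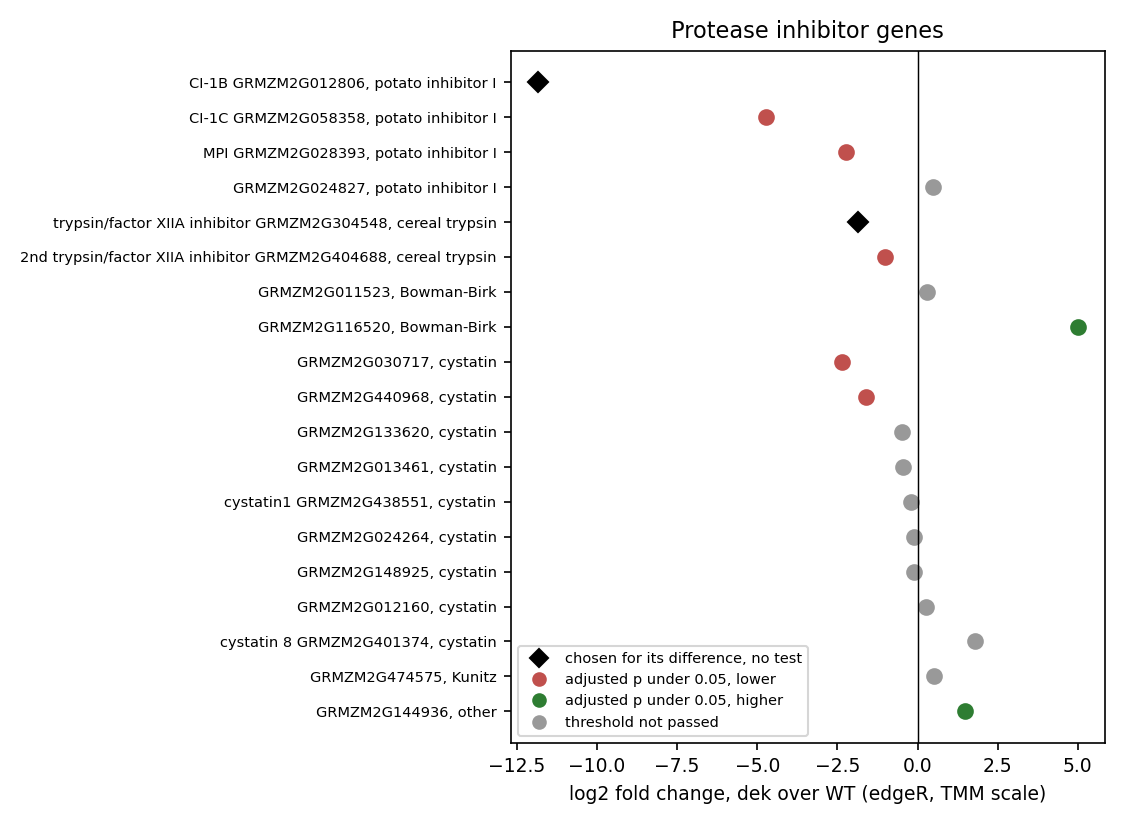
Log2 fold change, dek over WT, of the 17 tested protease inhibitor genes and the 2 inhibitors described here (black diamonds, chosen for their difference and not tested), grouped by family. Red points were called lower and green points higher in dek, and grey points did not pass. The points of CI-1B, with 3 counts in dek, and GRMZM2G116520, with 1 count in WT, depend on the prior count of the fit.

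The trypsin/factor XIIA inhibitor supplied most of the summed FPKM of the genes described as protease inhibitors. A difference in a sum that holds it and CI-1B thus follows from the choice of these genes. Genes with only the deposited peptidase inhibitor term, such as protein Z, are not in the sums. Over the 27 genes described as protease inhibitors, the 2 described here included, the sum was 1416.7 and 1830.8 FPKM in dek A and B, against 3896.8 and 4774.4 FPKM in WT A and B. The trypsin/factor XIIA inhibitor made up 50.8% and 68.5% of it in dek A and B, and 70.8% and 65% in WT A and B. CI-1B ranked 2nd of the 27 by mean FPKM in WT and 25th in dek. Without these 2 genes the sum was 697 and 576 FPKM in dek and 867 and 981 FPKM in WT, and the cystatins alone gave 508 and 377 FPKM in dek and 491 and 396 FPKM in WT, so that their groups overlapped.

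**Figure D3:**
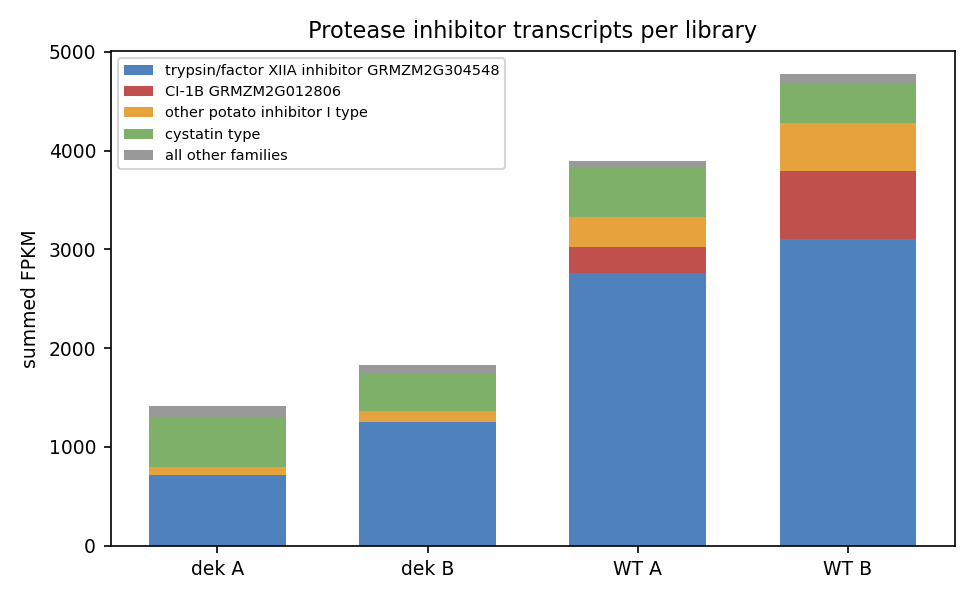
Summed FPKM of 27 protease inhibitor genes in each library, stacked by gene or family. The trypsin/factor XIIA inhibitor is the largest part in each library, the CI-1B part is visible in WT A and WT B and absent to the eye in dek, and the cystatin part has a like height in the 4 libraries.

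Antimicrobial peptide genes other than MBP-1 moved both ways. Of 20 such genes 15 were tested, and 5 were lower and 1 higher in dek (edgeR, 33.3% and 6.67%). Over all genes tested 8.85% were lower and 7.98% higher, so the share called higher was near that of all genes. The log2 fold changes of the 15 had a median of 1.11, beside 0.01 over all genes. With total-count scaling these medians were 1.41 and 0.32. The median of the list and the majority of its calls thus differ in sign. DESeq2's Wald test called 5 lower and 4 higher, and total-count scaling 5 lower and 3 higher. Without dek A edgeR called 2 lower and 2 higher, and without dek B 3 lower and 1 higher. Without WT A it called 4 lower and 9 higher, with a median of 2.39, and without WT B 6 lower and 3 higher, with a median of 0.54.

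Among the defensin-type peptides, small disulfide-rich antifungal proteins, a flower-specific gamma-thionin gene (GRMZM2G392863) had the highest wild-type level. It had 125 and 169 FPKM in dek A and B and 1383.2 and 1323.1 FPKM in WT A and B, and fell by 3.5 on the log2 scale (edgeR adjusted p = 0.00144). Another gamma-thionin gene (GRMZM2G368861) had 7.52 and 7.14 FPKM in dek and 12.2 and 20.2 FPKM in WT (edgeR adjusted p = 0.0186), which became 0.0955 without dek A and 0.0911 without dek B. Of the gibberellin-regulated GASA peptides, GRMZM2G150688 fell by 3.9 (edgeR adjusted p = 0.00568), GRMZM2G062527 by 3.88 (0.0223) and GRMZM2G077034 by 1.07 (0.00655) on the log2 scale. For GRMZM2G062527 the adjusted p was 0.0921 without dek A, 0.117 without dek B and 0.0658 without WT A, and for GRMZM2G077034 it was 0.0552 without dek A. The first of these genes had 2.89 and 2.2 FPKM in dek and 20.7 and 41.4 FPKM in WT, and GRMZM2G077034 had 50.6 and 53 FPKM in dek and 89.8 and 86.8 FPKM in WT.

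Other genes of both families had higher values in dek without passing the threshold, and these were named after their values were seen. A putative defensin gene (GRMZM2G091445) had 1007.2 and 808 FPKM in dek and 458 and 120.0 FPKM in WT (edgeR adjusted p = 0.161). Another of the defensin type, GRMZM2G149869, had 38.2 and 38.8 FPKM in dek and 12.6 and 2.46 FPKM in WT (edgeR adjusted p = 0.0795). The GASA gene GRMZM2G068202 had 140.0 and 267 FPKM in dek and 84.1 and 69.7 FPKM in WT (edgeR adjusted p = 0.0666). In all 3 the groups did not overlap, but the genes were picked on these values, so this supports no difference. Summed over 6 listed GASA genes the level was 311 and 388 FPKM in dek and 240.0 and 210.0 FPKM in WT, although 3 of the 5 tested were called lower.

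The single higher antimicrobial gene was a basal layer antifungal peptide gene (GRMZM2G133382), of peptides made in the transfer cells at the base of the endosperm. It had 199 and 134 FPKM in dek A and B and 7.41 and 2.08 FPKM in WT A and B, and rose by 4.8 on the log2 scale (edgeR adjusted p = 0.00571). Summed over its 5 genes this family had 2780.4 and 1776.9 FPKM in dek and 889 and 230 FPKM in WT. These 5 genes are also among the 12 markers of the basal transfer layer, whose sum was 7520.8 and 4981.3 FPKM in dek and 2521.7 and 686 FPKM in WT, with none of the 12 at 0 in any library. Of the 12, 2 were called higher, beside 7.98% of all genes tested. These were GRMZM2G133382 itself and a maternally expressed gene 3 precursor (GRMZM2G088896, edgeR adjusted p = 0.0402), and the other markers did not pass (edgeR adjusted p from 0.0887 to 0.273). Their part in the antifungal peptide levels was not tested.

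Seed globulins are storage proteins laid down in the same seed. Of 8 genes 5 were tested and 3 were lower in dek (edgeR), beside 8.85% of all genes tested. With both edgeR and DESeq2, and also at an unadjusted p under 0.05, 0 were higher, while 1 was called higher without WT A. Legumin 1 fell by 1.93 on the log2 scale (edgeR adjusted p = 0.00571). Globulin 3 (GRMZM2G410134), a vicilin-type protein, had 314 and 384 FPKM in dek and 708 and 958 FPKM in WT (edgeR adjusted p = 0.00896). A globulin-1-like gene (GRMZM2G078441) had 34.3 and 29.6 FPKM in dek and 62.6 and 51.9 FPKM in WT (edgeR adjusted p = 0.00936, but 0.0517 without dek A and 0.0587 without dek B).

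Lipid transfer proteins, a family with the same disulfide-rich helical fold as the cereal trypsin inhibitors, had 4 lower of 19 tested (edgeR, 21.1%), or 2 without dek A, dek B or WT A. Over all genes tested, 8.85% were lower and 7.98% higher. At an unadjusted p under 0.05 the numbers in the list were 4 lower and 0 higher, and DESeq2 gave 3 lower and 0 higher. Total-count scaling gave 2 lower and 1 higher, and leaving out WT A gave 2 higher. A probable lipid-transfer protein 2 gene (GRMZM2G081464) had 1 count over the dek group and 308 over the WT group, a ratio of WT over dek of 406 with an exact 95% Clopper-Pearson interval of 72.3 to 16076.3. GRMZM5G898755 had 35.5 and 16.4 FPKM in dek and 147 and 272 FPKM in WT (edgeR adjusted p = 0.0105). The other pair, GRMZM2G137329 (edgeR adjusted p = 0.0475) and GRMZM2G091973 (edgeR adjusted p = 0.0489), passed narrowly. Their adjusted p was 0.205 and 0.192 without dek A, 0.133 and 0.175 without dek B, and 0.156 and 0.114 without WT A, and that of GRMZM2G091973 was 0.0803 without WT B.

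Among serine protease genes, here subtilases and serine carboxypeptidases, most calls were in the higher direction, while most genes were not called. Subtilases are plant relatives of subtilisin, while serine carboxypeptidases are exopeptidases of another fold. Of 33 tested genes for subtilases and serine carboxypeptidases, 9 were higher and 1 lower in dek (edgeR, 27.3% and 3.03%), or 12 and 1 with total-count scaling. Over all genes tested 7.98% were higher and 8.85% lower (1965 and 2178 genes, or 4502 and 1279 with total-count scaling). The median log2 fold change of the 33 was 0.59, beside 0.01 over all genes. The number higher was 3 without dek A or without dek B and 6 without WT A or without WT B, and the 1 lower gene, GRMZM2G121293 (0.18 and 0.14 FPKM in dek, 0.68 and 0.86 FPKM in WT), was not called with any 1 library left out (adjusted p from 0.0501 to 0.154).

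A subtilase gene (GRMZM2G437435) was the most abundant of those called higher, with 231 and 337 FPKM in dek A and B and 19.9 and 46.6 FPKM in WT A and B. It rose by 2.8 on the log2 scale (edgeR adjusted p = 0.0143, but 0.0619 without dek B). A serine carboxypeptidase gene (GRMZM2G106165), of a family of vacuolar and secreted exopeptidases, had 22.5 and 29.1 FPKM in dek and 0.93 and 0.64 FPKM in WT, and another subtilase (GRMZM2G120085) had 18.5 and 14.9 FPKM in dek and 2.6 and 3.02 FPKM in WT (edgeR adjusted p = 0.00161 and 0.00284). Both kept their call with each library left out in turn. Summed over all 39 listed subtilase genes the level was 545 and 522 FPKM in dek and 156 and 172 FPKM in WT.

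Cysteine and aspartic protease genes had 6 higher and 4 lower of 34 tested (edgeR, 17.6% and 11.8%), or 10 higher and 3 lower with total-count scaling. Over all genes the shares were 7.98% higher and 8.85% lower, so the share called lower was near that of all genes. The median log2 fold change was -0.06, and 0.24 with that scaling. Without dek A the test called 0 in either direction, without dek B 2 higher and 1 lower, and without WT B 2 higher and 3 lower. The most abundant of the lower genes, the aspartic proteinase oryzasin-1 gene (GRMZM2G065757), had 173 and 155 FPKM in dek and 199 and 189 FPKM in WT (edgeR adjusted p = 0.0318). Its call was lost whichever library was left out (adjusted p from 0.0826 to 0.113). Vignain (GRMZM2G456217), a papain-type protease, had 59.2 and 62.6 FPKM in dek and 80.8 and 95.1 FPKM in WT (edgeR adjusted p = 0.0158), and GRMZM2G146745 had 1.37 and 2.25 FPKM in dek and 6.27 and 6.03 FPKM in WT (edgeR adjusted p = 0.0161). Without dek A these became 0.0883 and 0.0758, and without dek B the vignain value became 0.0642. Among the higher genes, an aspartic protease gene (GRMZM2G144464) had 28.5 and 13.1 FPKM in dek and 2.12 and 0.86 FPKM in WT (edgeR adjusted p = 0.0145, and 0.0696 without dek A). GRMZM2G381739 had 13.2 and 16.9 FPKM in dek and 6.48 and 5.39 FPKM in WT (edgeR adjusted p = 0.031), and GRMZM2G133029 had 8.37 and 7.15 FPKM in dek and 3.14 and 3.33 FPKM in WT (edgeR adjusted p = 0.0306). These became 0.0816 and 0.172 without dek A, 0.157 and 0.109 without dek B, and 0.082 and 0.0632 without WT B, and GRMZM2G133029 also missed the threshold without WT A (0.0679).

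**Figure D4:**
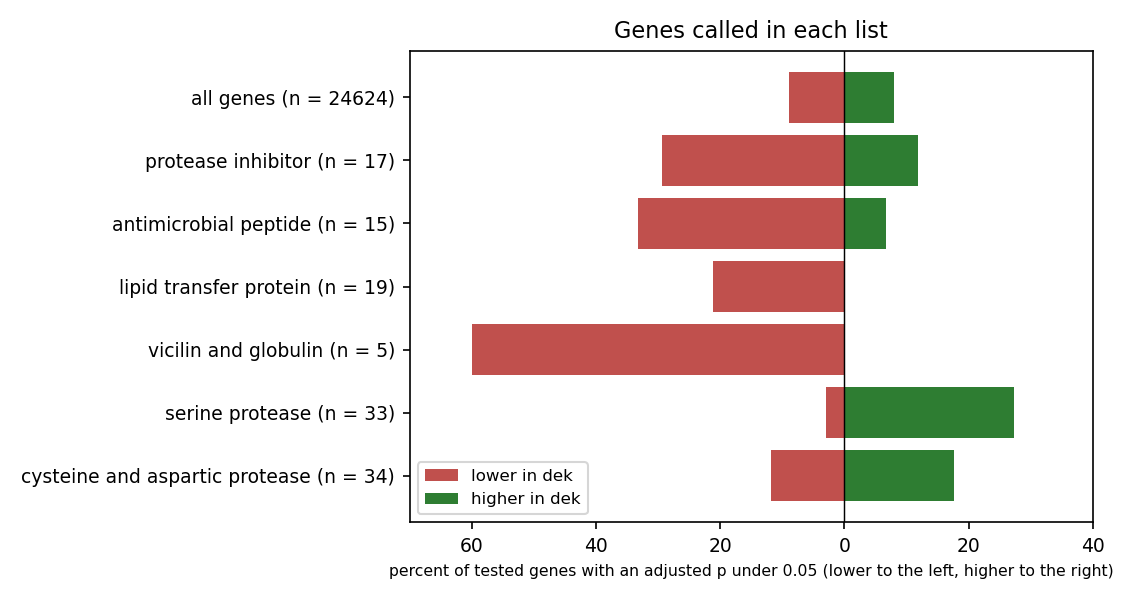
Percent of tested genes in each list called lower (red, to the left) or higher (green, to the right) in dek at an edgeR adjusted p under 0.05, with all 24624 genes on top at 8.85% and 7.98%. The 3 genes described here are left out. Protease inhibitors stand at 29.4% lower and serine proteases at 27.3% higher.

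Markers of tissues were read beside the 3 genes. Over all genes tested, 8.85% were lower and 7.98% higher in dek. Endosperm markers (zeins, shrunken2 and brittle2) had 26 of 26 tested genes lower in dek, and their sum was 4169.3 and 6634.4 FPKM in dek against 55117.7 and 53140.1 FPKM in WT. Of the 28 listed, 3 and 2 were at 0 in dek A and B and 1 and 0 in WT A and B. Embryo markers (oleosins, late embryogenesis abundant proteins, globulin-1 and DC-8) had 8 of 14 tested genes lower, with a sum of 194 and 186 FPKM in dek against 870 and 1036.1 FPKM in WT. Of the 23 embryo markers listed, 3 and 6 were at 0 in dek A and B and 4 and 1 in WT A and B, while the most abundant, a 16-kDa oleosin gene (GRMZM2G337229), had 82.7 and 77.9 FPKM in dek and 548 and 596 FPKM in WT. Of the 3 genes listed as aleurone markers 2 were tested, pale aleurone color 1 (edgeR adjusted p = 0.825) and superal 1 (edgeR adjusted p = 0.178). The third, red aleurone1, had 0.22 and 0.29 FPKM in dek and 0.3 and 0.33 FPKM in WT. The list had a sum of 192 and 215 FPKM in dek and 172 and 175 FPKM in WT and none at 0. Whether the levels of these genes follow the amount of aleurone was not tested. Photosynthesis genes, markers of green tissue, summed to 28.6 and 28.4 FPKM in dek and 37.5 and 62.3 FPKM in WT over 48 genes, of which 8 were lower and 1 higher of 15 tested. The part of endosperm or embryo marker levels in the values of MBP-1, CI-1B and the trypsin/factor XIIA inhibitor was not tested.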

How the data were processed

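The deposited tables hold 1 row per gene and library. Expected counts are, per the file headers, estimated counts as RSEM gives them, deposited without normalization, and FPKM was computed by the authors from gene length and fragments. HISAT, Bowtie2, RSEM and GATK are named in the submitters' processing notes, with no version or role. Build, annotation and strand setting: not given in the sources used here. Genes absent from a table were taken as 0. Lengths are in bases, as the authors deposited them.

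Counts per library ranged from 13119658 to 14776699. Expected counts were rounded and fitted with edgeR 4.0.16 (R 4.3.3; TMM, filterByExpr, quasi-likelihood test, two-sided, Benjamini-Hochberg adjustment over 24624 genes, threshold 0.05) over the 4 libraries with no covariate. The TMM factors were 1.128 and 1.097 in dek A and B and 0.8951 and 0.903 in WT A and B. FPKM carries no such factor, so a gene stands higher in dek against WT by FPKM than in the fit. edgeR's p-values in the text are all of this kind unless a left-out library or another tool is named. Lists were matched by the deposited protein descriptions, and RefSeq names by model identifier or protein accession (23389 of 34567 genes matched). Ratios with 1 to 3 counts in a group carry exact Clopper-Pearson intervals on library sizes scaled by TMM, from scipy 1.17.1. Genes were named by a rule: all called genes of a list with up to 6 calls, otherwise the 3 most abundant in each direction, plus the most abundant of each inhibitor family, the 5 nearest profiles, the matched genes among the 2 nearest on each side in RefSeq order, o2 and pbf1. The members and lists were chosen with earlier results of these data known. Alternatives used DESeq2 1.42.0, limma 3.58.1 on log2(FPKM + 1) and log2(FPKM + 0.1), other scalings and filters, a replicate block and each library left out. With 1 library left in a genotype, that library is assumed to vary like the other pair. Protein and promoter sequences were not used here.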

Additional observations from a re-analysis of the deposited data

How the results depend on the processing

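The directions of the 3 genes did not change in any alternative. The genes were picked as lower in dek in these same libraries, so this is a description and no support. For MBP-1 the log2 fold change was -12.02 and ranged from -14.12 to -11.21 with 1 library left out. It was -6.23 with limma on log2(FPKM + 1) and -9.32 on log2(FPKM + 0.1), where the pseudocount sets the value of a gene near 0. For CI-1B it was -11.84, from -12.37 to -11.03 with 1 library left out, and -8.56 with limma on log2(FPKM + 1). For the trypsin/factor XIIA inhibitor it was -1.87, from -2.37 to -1.52.

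Over all genes, 2178 were called lower and 1965 higher. These numbers were 1279 and 4502 with total counts alone, 1326 and 4483 with limma on log2(FPKM + 1), and 1260 and 4145 on log2(FPKM + 0.1). They ranged from 465 to 1966 and from 281 to 1731 with 1 library left out. Genes called higher outnumbered those called lower with total counts and with limma on FPKM. They also did with upper-quartile factors (1987 lower, 2106 higher) and without WT B (1311 lower, 1356 higher). The cause was not tested.

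A replicate block by title letter gave 1080 lower and 811 higher. Same-lettered pools deviated with a correlation of -0.0218 over the genes tested, which does not show pairing. The basal transfer layer markers still summed higher in pool A of both genotypes. Their sums in A and B were 7520.8 and 4981.3 FPKM in dek and 2521.7 and 686 FPKM in WT. The labels do not say whether same-lettered pools shared an ear. With the block, calls were 1 higher among protease inhibitors, 3 higher among antimicrobial peptides, 2 lower among lipid transfer proteins, 0 lower among serine proteases, and 2 lower and 3 higher among cysteine and aspartic proteases. No other list count moved by over 1.5 times under the block.

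With total counts alone, antimicrobial peptides had 3 higher, lipid transfer proteins 2 lower and 1 higher, and cysteine and aspartic proteases 10 higher. DESeq2 gave 4 higher antimicrobial peptides, as did limma with either pseudocount (4 and 4). Limma also gave 1 higher lipid transfer protein and 0 lower serine proteases with both. Upper-quartile factors gave 2 lower lipid transfer proteins. A minimum of 50 counts in 2 libraries gave 1 higher protease inhibitor and 0 lower serine proteases. A list of inhibitors by the deposited peptidase inhibitor term was chosen after the identifiers were seen. It had 9 lower and 2 higher of 25 tested (36% and 8%). Over all genes tested 8.85% were lower and 7.98% higher, so the share called higher was near that of all genes. This list shares lower genes with the first, such as MPI and CI-1C, and also holds globulin 3, so it is no independent check.

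With 1 library left out, lower and higher calls ranged from 2 to 5 and 0 to 3 (protease inhibitors), 2 to 6 and 1 to 9 (antimicrobial peptides), 2 to 3 and 0 to 2 (lipid transfer proteins), 2 to 3 and 0 to 1 (globulins), 0 to 1 and 3 to 6 (serine proteases), and 0 to 3 and 0 to 6 (cysteine and aspartic proteases).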
